A study of Mus musculus with 20 samples.

Results

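The NR4A, EGR and DUSP genes described here are 10 mouse genes chosen by name: Nr4a1, Nr4a2, Nr4a3, Egr1, Egr2, Egr3, Dusp1, Dusp2, Dusp4 and Dusp5. All 10 were matched from symbol to Ensembl identifier among 49315 identifiers, and all 10 were among the 16500 genes that passed the filter on low counts. The RNA came from mouse lung eosinophils that had been isolated by flow cytometric sorting, and each library pooled the lungs of 3 to 5 mice. The day 7 libraries without costimulatory blockade (n = 5) came from Balb/c lungs 7 days after transplantation into C57BL/6 mice, and the protocol describes the eosinophils of the grafts as cells of the recipient. The resting libraries (n = 5) came from lungs of untreated C57BL/6 mice. No transgene or deletion is named in the labels, and no age is given.

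Immediate early genes are transcribed within minutes of a signal, without new protein being made first. NR4A proteins are orphan nuclear receptors that bind DNA without a known hormone, and EGR proteins are zinc finger transcription factors. The DUSP genes measured here encode phosphatases that remove phosphate from mitogen-activated protein kinases (MAP kinases) and so close the loop on the signal that induces them. All 3 families are known to respond to receptor stimulation in leukocytes, and also to the handling of tissue before sorting.

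Total counts were 15695074 to 26683784 per day 7 library and 6666577 to 12883144 per resting library, so 3 counts correspond to 0.112 to 0.191 CPM, the count scaled to a common library total, at day 7 and to 0.233 to 0.450 CPM at rest. The groups were deposited in separate tables and differ in depth, so a batch and the group cannot be told apart. The defining receptors of eosinophils, Siglecf, Ccr3 and Il5ra, were detected, and the 12 eosinophil markers summed to 794 to 3016 CPM in day 7 libraries and to 1826 to 3266 CPM in resting libraries. Of these 12, 6 were lower at day 7 (Epx, Prg2, Prg3, Ear1, Ear2 and Ear6, all granule proteins), Siglecf was higher and 5 were not called, and Alox15 and Ccr3 had the highest CPM at day 7. Markers of other cells were also present. The 8 neutrophil markers summed to 4283 to 8067 CPM at day 7 and to 8747 to 11492 CPM at rest. This was above the eosinophil sum in every library, with 1 of the 8 genes called lower. Retnlg alone averaged 4288 CPM at day 7 and 5356 CPM at rest, so sums of unlike lists do not rank cell types. The 12 markers of monocytes and macrophages summed to 4684 to 8728 CPM at day 7 against 2183 to 2983 CPM at rest, and the 12 of T cells to 325 to 911 CPM at day 7 against 99.6 to 144 CPM at rest. The 10 endothelial markers went the other way, with 131 to 193 CPM at day 7 and 2668 to 3850 CPM at rest, and the 8 epithelial markers with 65.8 to 487 CPM at day 7 and 3422 to 5193 CPM at rest. The 8 markers of red cells and platelets summed to 94.7 to 158 CPM at day 7 and to 1478 to 2364 CPM at rest, and all 8 were lower. Called higher were 4 of 7 markers of NK cells, 0 of 6 of B cells, 2 of 7 of alveolar macrophages, 4 of 8 of dendritic cells, 1 of 5 of mast cells and basophils and 1 of 8 of stroma, and called lower were 0, 5, 4, 1, 1 and 4 of them in that order. No marker of any list was at 0 in all libraries. In such libraries fewer cells of a type and less RNA per cell cannot be told apart, and the part of these markers in the results below was not tested.

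Each family split in the same way. The most abundant member of each, Nr4a1, Egr1 and Dusp1, fell in the day 7 grafts, while Nr4a2, Nr4a3, Egr2, Dusp2, Dusp4 and Dusp5 rose and Egr3 did not pass the test. Thus 6 of 10 members were higher and 3 lower at an adjusted p below 0.05 in edgeR's quasi-likelihood test, where 23.3% of all tested genes were called higher and 23.4% lower, or 46.7% in all. The 2 groups did not overlap in 7 of the 10 members (4 higher and 3 lower), against 35.1% of all tested genes (16.4% higher and 18.7% lower). The median log2 fold change (day 7 without blockade minus resting) was 0.76 over the 10 members and 0.05 over all tested genes. The members were chosen with earlier results of these data known, so these counts beside all tested genes are a description only.

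**Figure D1:**
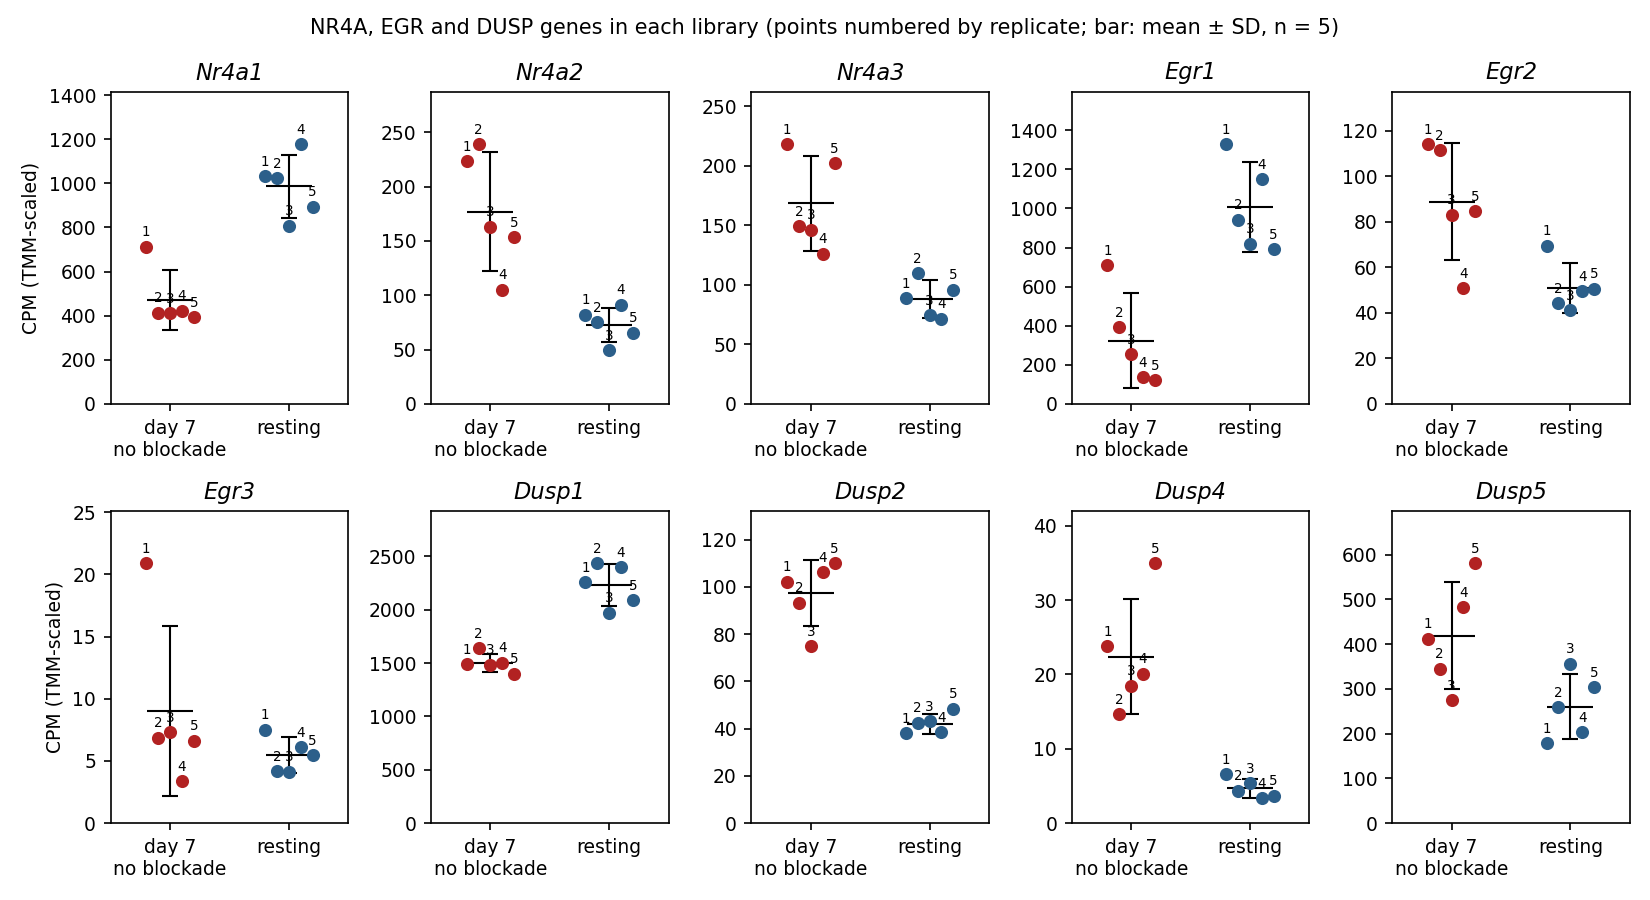
CPM of each of the 10 genes (vertical axes, TMM-scaled, each starting at 0) in the 5 day 7 libraries without blockade and the 5 resting libraries, with points numbered by replicate and bars for mean ± SD. Nr4a1, Egr1 and Dusp1 are lower in every day 7 library than in any resting library, and Nr4a2, Nr4a3, Dusp2 and Dusp4 are higher.

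Nr4a1 encodes Nur77, the receptor of the family best known as a readout of antigen receptor signalling in T cells (ENSMUSG00000023034, chromosome 15, 101254269 to 101274795, mm10). It had 713, 414, 412, 422 and 393 CPM in day 7 replicates 1 to 5, against 1032, 1022, 808, 1178 and 893 CPM in resting replicates 1 to 5. Every day 7 library was below every resting library, and day 7 replicate 1 stood above the other four. Nr4a1 fell by 1.07 ± 0.18 on the log2 scale (SE, adjusted p = 0.000268), or 2.10-fold.

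Nr4a2 encodes Nurr1, which is also known for its role in dopamine neurons (ENSMUSG00000026826, chromosome 2, 57106830 to 57124003). It had 223, 239, 163, 105 and 154 CPM in the day 7 libraries, against 82.1, 75.1, 49.7, 91.1 and 65.7 CPM in the resting libraries. The groups did not overlap, and day 7 replicate 4 came closest to rest. Nr4a2 rose by 1.28 ± 0.22 on the log2 scale (adjusted p = 0.000337). Nr4a3 encodes Nor1, which acts redundantly with Nr4a1 in several myeloid and lymphoid cells of the mouse (ENSMUSG00000028341, chromosome 4, 48045153 to 48086447). It had 218, 149, 146, 126 and 202 CPM at day 7, against 88.6, 109.8, 74.6, 71.4 and 96.0 CPM at rest. Again no libraries overlapped, and the rise was 0.93 ± 0.17 (adjusted p = 0.000508).

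Within the family the make-up of the reads differed without overlap. Nr4a1 supplied 51.6% to 64.6% of the NR4A counts of a day 7 library and 84.7% to 87.9% of those of a resting library. Nr4a2 supplied 16.1% to 29.8% at day 7 and 5.33% to 6.83% at rest, and Nr4a3 18.6% to 27.0% at day 7 and 5.33% to 9.10% at rest. The summed CPM of the 3 genes was 816 ± 197 at day 7 and 1147 ± 157 at rest (SD, n = 5 each). A ratio inside a library does not depend on how libraries are scaled to each other, so it shows whether members changed unequally. The log2 ratio of Nr4a2 to Nr4a1 averaged -1.43 ± 0.45 at day 7 and -3.77 ± 0.14 at rest, a difference of 2.34 ± 0.21 (SE), and that of Nr4a3 to Nr4a1 averaged -1.47 ± 0.31 at day 7 and -3.49 ± 0.34 at rest, a difference of 2.01 ± 0.21. Both ratios were higher in 5 of 5 day 7 libraries than in any resting library. In an exact permutation test (two-sided) p was 0.00794 for each, which is the lowest value possible with 5 libraries a group, and adjustment over the 7 ratios computed left it at 0.00794.

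RefSeq promoter windows on GRCm38.p6, the assembly also called mm10, matched 7 of the 10 members by symbol, all but Egr1, Egr3 and Dusp4. The 250 bases before each start were searched on both strands for the core of the cyclic AMP response element (CRE), TGACG, bound by CREB, and for the whole element TGACGTCA, which contains the core. The search also took in the CArG box of serum response factor, the EGR site GCGNGGGCG, the NR4A site AAAGGTCA (NBRE), the AP-1 site TGANTCA and the NF-kB site. The NR4A stretches are shown because all 3 genes hold 4 cores each although 1 of them fell and the other two rose. They are written 5′ to 3′ on the strand of the gene, without bases that GENCODE M21 gives to exons of protein-coding genes. Capitals mark CRE cores and CArG boxes. They lie at chr15:101266596-101266845 (plus strand), chr2:57124004-57124253 (minus strand) and chr4:48045055-48045152 (plus strand).
Nr4a1: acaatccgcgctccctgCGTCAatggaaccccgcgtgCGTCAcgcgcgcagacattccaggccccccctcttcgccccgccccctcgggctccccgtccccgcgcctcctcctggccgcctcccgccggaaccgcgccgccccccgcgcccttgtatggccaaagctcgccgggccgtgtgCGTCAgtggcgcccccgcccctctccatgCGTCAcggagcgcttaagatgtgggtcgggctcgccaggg
Nr4a2: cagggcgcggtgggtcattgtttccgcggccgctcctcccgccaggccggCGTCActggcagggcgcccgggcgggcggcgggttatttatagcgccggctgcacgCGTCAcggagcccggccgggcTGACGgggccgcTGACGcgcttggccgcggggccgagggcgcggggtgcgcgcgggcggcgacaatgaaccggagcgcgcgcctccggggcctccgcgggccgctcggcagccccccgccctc
Nr4a3: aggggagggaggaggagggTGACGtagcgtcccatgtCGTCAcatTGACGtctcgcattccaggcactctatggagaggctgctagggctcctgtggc
Of the 4 cores of Nr4a3, 3 are in the stretch shown and the other one is 143 bases before the RefSeq start, where GENCODE already has an exon. At least 4 cores were found in 0.137% of 32851 windows of this length, and at least 1 in 17.8%. An EGR site was found in Nr4a1 and Nr4a2, at 52 and 66 bases before the start, and in 4.70% of all windows. A match is a description of the letters only.

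**Figure D2:**
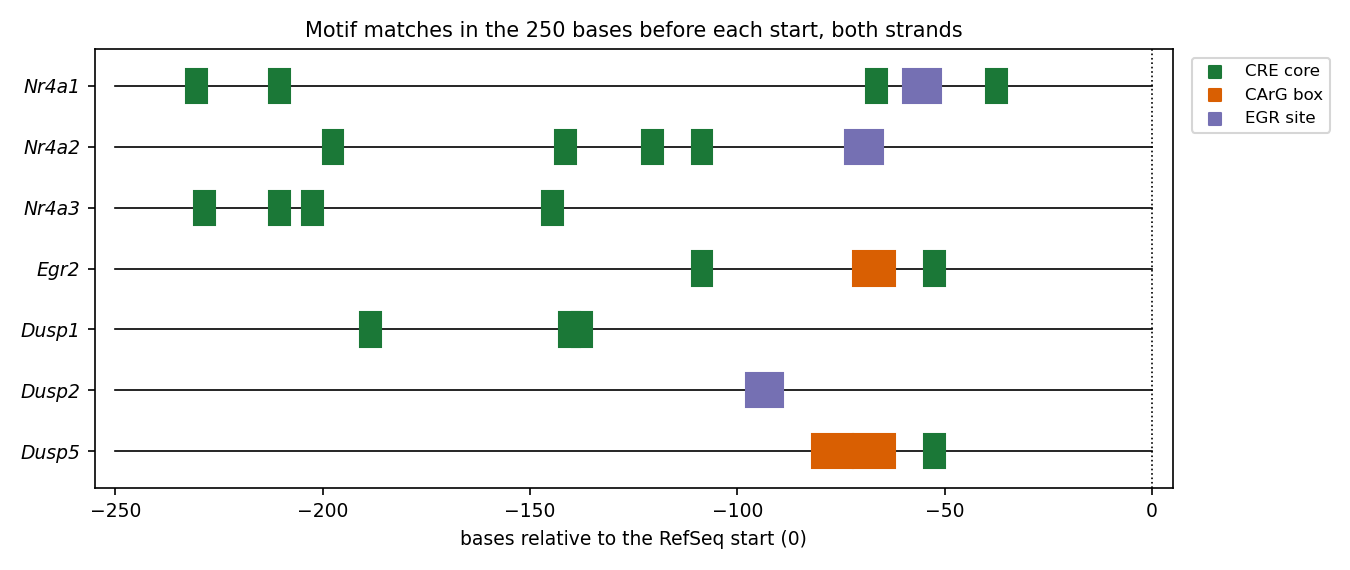
Position of CRE cores, CArG boxes and EGR sites (coloured blocks, to scale) in the 250 bases before the RefSeq start of 7 genes, with distance from the start in bases on the horizontal axis. The 3 NR4A genes hold 4 CRE cores each, and CArG boxes are seen in Egr2 and Dusp5.

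Egr1, a factor induced through serum response factor and its ETS partners (ENSMUSG00000038418, chromosome 18, 34859823 to 34864984), was the member with the largest fall. It had 711, 392, 256, 136 and 121 CPM in day 7 replicates 1 to 5, against 1330.0, 943, 819.7, 1151 and 790.4 CPM in resting replicates 1 to 5. All day 7 libraries lay below all resting libraries, but they differed widely among themselves. Egr1 fell by 1.64 ± 0.42 on the log2 scale (adjusted p = 0.00608), or 3.12-fold. The adjusted p was 0.0584 when genes with low counts were kept in the fit.

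The spread of Egr1 between day 7 libraries, a ratio of 5.86 between the highest and the lowest, exceeded that of 98.6% of 10323 genes with at least 5 CPM in that group, whose median was 1.52. In resting lung the same ratio was 1.68, beside a median of 1.44 over 10989 genes. The eosinophil markers summed to 794, 942, 1447, 2225 and 3016 CPM in day 7 replicates 1 to 5, so the libraries ran in the opposite order to Egr1. In resting replicates 1 to 5 they summed to 1826, 2764, 3266, 2268 and 2675 CPM, and replicate 1, the highest in Egr1, was again the lowest in these markers. The opposite order did not hold throughout at rest, where replicate 5 was lowest in Egr1 and replicate 3 highest in these markers. The endothelial markers summed to 3850, 2760, 2836, 3376 and 2668 CPM in resting replicates 1 to 5. Like Egr1 there, they were highest in replicate 1 and lowest in replicate 5. In day 7 replicates 1 to 5 they summed to 166, 131, 186, 193 and 148 CPM, which was not the order of Egr1. The other marker lists were not set beside Egr1. The part of eosinophil and endothelial markers in the spread and in the fall of Egr1 was not tested.

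Egr2, which in mouse T cells restrains activation and in macrophages marks alternative activation (ENSMUSG00000037868, chromosome 10, 67535475 to 67542188), had 114, 111, 83.0, 50.7 and 84.7 CPM at day 7, against 69.5, 44.3, 41.1, 49.5 and 50.7 CPM at rest. The groups overlapped through resting replicate 1, which exceeded day 7 replicate 4. Egr2 rose by 0.80 ± 0.21 on the log2 scale (adjusted p = 0.00644). Egr3, a close relative that acts with Egr2 in mouse lymphocytes (ENSMUSG00000033730, chromosome 14, 70077203 to 70082614), had 20.9, 6.87, 7.29, 3.36 and 6.63 CPM at day 7, against 7.52, 4.18, 4.13, 6.09 and 5.48 CPM at rest. It had the highest and the lowest of the 10 values within the day 7 group, in replicates 1 and 4. Its log2 fold change of 0.72 ± 0.41 did not pass (adjusted p = 0.169). It became 0.16 without day 7 replicate 1 (adjusted p = 0.661) and 0.94 without day 7 replicate 4, where it passed (adjusted p = 0.0482), and it also passed without the filter on low counts (0.83, adjusted p = 0.00318).

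As with NR4A, the minor EGR genes gained on the major one. Egr1 supplied 57.0% to 84.0% of the EGR counts of a day 7 library and 93.4% to 95.4% of those of a resting library, while Egr2 supplied 13.5% to 39.8% at day 7 and 4.10% to 5.99% at rest. The log2 ratio of Egr2 to Egr1 averaged -1.60 ± 0.76 at day 7 and -4.28 ± 0.21 at rest, a difference of 2.69 ± 0.35. That of Egr3 to Egr1 averaged -5.01 ± 0.59 at day 7 and -7.41 ± 0.22 at rest, a difference of 2.40 ± 0.28. Both were higher in 5 of 5 day 7 libraries than in any resting library (exact permutation p = 0.00794 each, adjusted p = 0.00794). By itself Egr3 changed by 0.72 on the log2 scale and was not called, while Egr1 changed by -1.64. Summed CPM of the 3 genes was 421 ± 270 at day 7 and 1063 ± 240 at rest. RefSeq gives 5 starts for Egr2, and the stretch before the one shared with GENCODE transcript Egr2-201 is shown because it holds both motifs, a CArG box 63 bases and CRE cores 51 and 107 bases before the start (chr10:67537619-67537868, plus strand).
Egr2: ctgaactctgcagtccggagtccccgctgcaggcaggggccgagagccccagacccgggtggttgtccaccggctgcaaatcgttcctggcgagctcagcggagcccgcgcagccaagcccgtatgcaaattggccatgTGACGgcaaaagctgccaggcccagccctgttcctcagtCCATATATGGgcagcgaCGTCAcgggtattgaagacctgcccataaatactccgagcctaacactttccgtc
A CArG box was found in 1.47% of all windows.

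**Figure D3:**
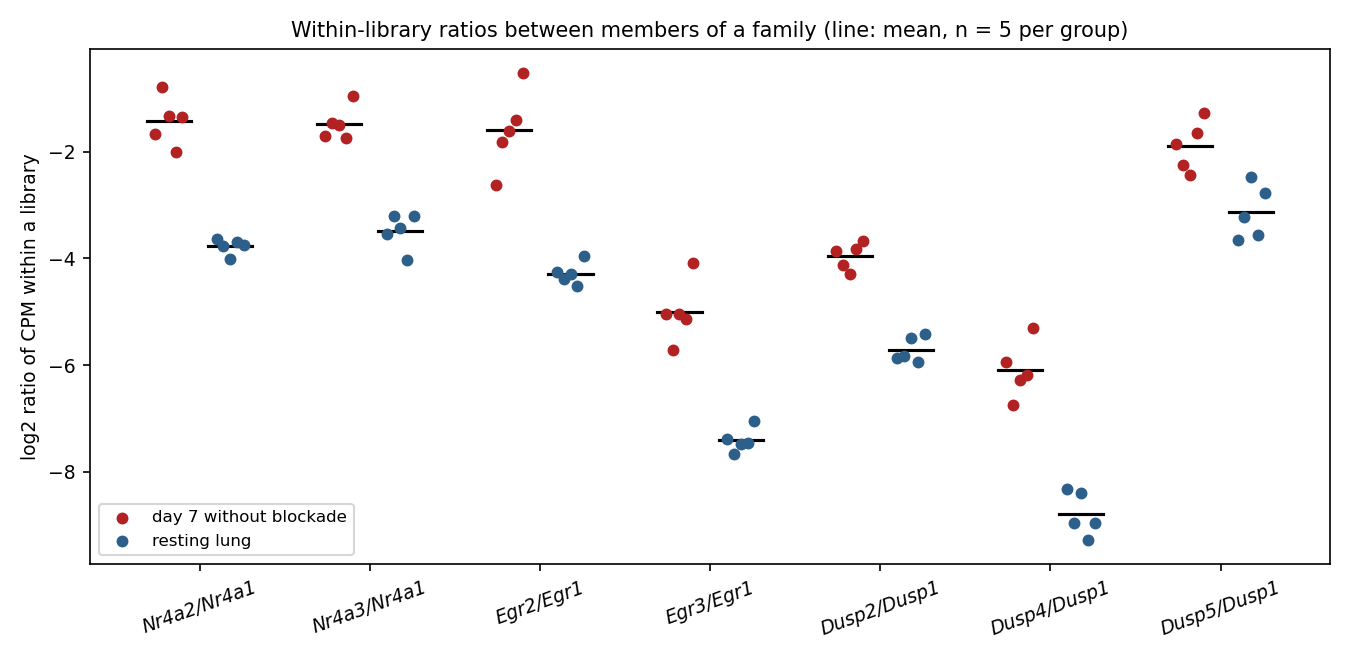
Log2 ratio between 2 members of a family inside each library (red, day 7 without blockade; blue, resting; line, mean of 5). All 7 ratios of a minor to the major member were higher in every day 7 library than in any resting library, by differences of 1.25 to 2.70. Ratios of a family share their denominator (Nr4a1, Egr1 or Dusp1), which fell in each family, so they are not 7 separate results.

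Dusp1, which acts mainly on p38 and JNK and limits inflammatory cytokine production in mouse macrophages (ENSMUSG00000024190, chromosome 17, 26505590 to 26562128), had the highest level of the 10 genes per length in both groups. It had 1487, 1638, 1486, 1506 and 1402 CPM at day 7, against 2261, 2436, 1973, 2397 and 2089.9 CPM at rest. The groups did not overlap, and the day 7 libraries lay within a ratio of 1.17, a smaller spread than in all but 4.98% of genes. Dusp1 fell by 0.57 ± 0.12 on the log2 scale (adjusted p = 0.00119), or 1.48-fold.

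Dusp2, a nuclear phosphatase abundant in activated leukocytes (ENSMUSG00000027368, chromosome 2, 127336159 to 127338376), had 102, 93.2, 74.9, 106 and 110.0 CPM at day 7, against 38.0, 42.5, 43.2, 38.4 and 48.5 CPM at rest. The lowest day 7 library was well above the highest resting one. Dusp2 rose by 1.21 ± 0.12 on the log2 scale (adjusted p = 2.97e-06), or 2.31-fold.

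Dusp4, a nuclear phosphatase of ERK and JNK (ENSMUSG00000031530, chromosome 8, 34807297 to 34819894), had 23.8, 14.7, 18.5, 20.1 and 35.0 CPM at day 7, against 6.57, 4.38, 5.37, 3.38 and 3.70 CPM at rest. Its rise of 2.26 ± 0.25 on the log2 scale, or 4.78-fold, was the largest change among the 10 (adjusted p = 7.83e-06). T cell markers summed to 528, 325, 579.9, 511 and 911 CPM in the same day 7 libraries, against 144, 99.6, 142, 136 and 107 CPM at rest. Replicate 5 was highest and replicate 2 lowest in both Dusp4 and these markers at day 7. The same held for the neutrophil markers, with 8067 CPM in day 7 replicate 5 and 4283 CPM in day 7 replicate 2. At rest replicate 1 was highest in both Dusp4 and the T cell markers. The lowest there was replicate 4 in Dusp4 and replicate 2 in the T cell markers. The part of either marker list in Dusp4 was not tested.

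Dusp5, which dephosphorylates ERK in the nucleus and in mice has been linked to eosinophil survival (ENSMUSG00000034765, chromosome 19, 53529109 to 53542431), had 412, 345, 274, 482 and 581 CPM at day 7, against 178, 259.6, 356, 204 and 304 CPM at rest. The groups overlapped, since day 7 replicates 2 and 3 were below resting replicate 3. Dusp5 rose by 0.69 ± 0.22 on the log2 scale (adjusted p = 0.0227). The call ended with library totals alone (0.51, adjusted p = 0.0790), without resting replicate 1 (0.59, adjusted p = 0.0527) and without resting replicate 4 (0.63, adjusted p = 0.0520). Its exons share 547 of 2473 bases with an antisense gene in GENCODE M21, and whether counting used strand is not stated in the labels or file headers, so reads of the 2 genes cannot be told apart there.

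The minor DUSP genes also gained on Dusp1, which supplied 65.9% to 80.2% of the counts of the 4 genes at day 7 and 83.0% to 91.0% at rest. The log2 ratio to Dusp1 differed between day 7 and rest by 1.76 ± 0.16 for Dusp2, by 2.70 ± 0.30 for Dusp4 and by 1.25 ± 0.31 for Dusp5 (exact permutation p = 0.00794 each, adjusted p = 0.00794, higher in 5 of 5 day 7 libraries than in any resting library). For Dusp5 the gap was narrow, with a lowest day 7 ratio of -2.44 and a highest resting ratio of -2.47. Summed CPM of the 4 genes was 2042 ± 113 at day 7 and 2539 ± 150 at rest. Dusp1 and Dusp5 are shown as the members that fell and rose least. Dusp1 holds a whole CRE, found in 1.55% of windows, and 3 cores (chr17:26508520-26508722, minus strand). Of these cores, only that 187 bases before the start lies outside the whole CRE. Dusp5 holds 2 CArG boxes, a number reached in 0.0183% of windows, and 1 core (chr19:53528895-53529108, plus strand).
Dusp1: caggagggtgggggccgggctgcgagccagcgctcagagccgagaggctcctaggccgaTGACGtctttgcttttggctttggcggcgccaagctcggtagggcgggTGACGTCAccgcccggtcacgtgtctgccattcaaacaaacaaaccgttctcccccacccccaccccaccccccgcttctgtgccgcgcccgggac
Dusp5: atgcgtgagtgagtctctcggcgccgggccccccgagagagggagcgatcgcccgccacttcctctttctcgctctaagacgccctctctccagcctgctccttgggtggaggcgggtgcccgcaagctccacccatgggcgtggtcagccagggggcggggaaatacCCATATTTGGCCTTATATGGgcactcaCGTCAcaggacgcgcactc
No NBRE, AP-1 or NF-kB site was found in the searched windows of the 7 genes, and these were found in 1.34%, 6.75% and 3.90% of all windows. Dusp2 had an EGR site, 90 bases before its start, and none of the other motifs.

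Levels between genes were compared as TMM-scaled CPM per kilobase of exon. At day 7 the order was Dusp1 (454 ± 25.8), Dusp5 (169 ± 48.1), Nr4a1 (134 ± 38.7), Egr1 (72.0 ± 54.1), Dusp2 (48.6 ± 6.99), Nr4a2 (43.6 ± 13.4), Nr4a3 (28.1 ± 6.61), Egr2 (26.1 ± 7.58), Dusp4 (8.18 ± 2.83) and Egr3 (2.04 ± 1.55). From Dusp5 to Egr2 each neighbour in that order overlapped the next in range, whereas Dusp1, Dusp4 and Egr3 stood apart. At rest it was Dusp1 (674 ± 59.8), Nr4a1 (281 ± 40.5), Egr1 (224 ± 51.2), Dusp5 (105 ± 29.3), Dusp2 (21.0 ± 2.13), Nr4a2 (17.9 ± 3.92), Egr2 (15.0 ± 3.25), Nr4a3 (14.7 ± 2.63), Dusp4 (1.71 ± 0.48) and Egr3 (1.24 ± 0.32). Nr4a1 overlapped Egr1 there, the genes from Dusp2 to Nr4a3 overlapped their neighbours, as did Dusp4 and Egr3, and Dusp5 stood apart from both neighbours. Among 16500 genes Dusp1 ranked 102 at day 7 and 50 at rest by this level, Nr4a1 412 at day 7 and 137 at rest, Egr1 778 at day 7 and 184 at rest, and Dusp5 313 at day 7 and 431 at rest.

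The genes whose log2 CPM ran most like each member over the 10 libraries, by root mean square difference after centring each gene, were sought among 10868 genes with at least 5 CPM in the higher group. Centring was over all 10 libraries, so a similar difference between the groups by itself brings genes near to each other. Nearest to Nr4a1 were Cnst (0.12), Ier2 (0.12) and Megf9 (0.15), with Ier2 itself an immediate early gene. Nearest to Nr4a2 were Pak1 (0.19), Slc3a2 (0.20) and Mrpl39 (0.21), and nearest to Nr4a3 were Vmp1 (0.14), Lmnb1 (0.17) and Nmrk1 (0.19). For Egr1 the nearest were Cdc42ep4 (0.28), Cped1 (0.30) and Pald1 (0.40). For Egr2 they were Fam162a (0.12), Hnrnpll (0.19) and Ints12 (0.20), and for Egr3 they were Bcl2l1 (0.23), Ptgs1 (0.28) and Tbrg1 (0.28). Dusp1 ran with Ctdsp2 (0.07), Zfp747 (0.08) and Nek9 (0.08), and Dusp2 with Fam91a1 (0.09), Jdp2 (0.10) and Zfp281 (0.12). Dusp4 was nearest to Trbc1 (0.19) and Trbc2 (0.20), the constant regions of the T cell receptor beta chain. Next came Sh2d2a (0.21), an adaptor of T cells. These genes had log2 fold changes of 2.09, 2.23 and 2.33 beside 2.26 for Dusp4, and likeness within a group was not tested. Dusp5 ran with Tgm2 (0.09), a transglutaminase averaging 3866 CPM in day 7 and 2417 CPM in resting libraries, and with Noct (0.15) and Pim1 (0.17). Between members, the closest pairs were Nr4a3 with Dusp2 (0.29) and Nr4a2 with Egr2 (0.31).

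Of 17 other immediate early transcription factors tested, 8 were lower and 2 higher, with a median log2 fold change of -0.46 beside 0.05 over all genes. Jun, a subunit of AP-1, had 156 ± 34.7 CPM at day 7 and 633 ± 138 CPM at rest (log2 fold change -2.02, adjusted p = 1.03e-06). Atf3, a stress-induced factor, had 199.5 ± 44.3 CPM at day 7 and 821 ± 173 CPM at rest (-2.04, adjusted p = 1.06e-06), Fosb 68.2 ± 14.9 CPM at day 7 and 248 ± 44.2 CPM at rest, and Klf4 26.7 ± 8.86 CPM at day 7 and 65.5 ± 12.3 CPM at rest. Of the 17 other early genes of signalling and RNA decay 7 were lower and 4 higher (median -0.17). Over all tested genes 23.4% were lower and 23.3% higher. Ier2 had 236 ± 66.7 CPM at day 7 and 514 ± 78.4 CPM at rest, and Gadd45g, a growth arrest gene, fell by 1.40, but Gadd45a rose by 1.52 and Tnfaip3, which encodes the NF-kB inhibitor A20, by 1.18 on the log2 scale.

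Heat shock genes known to be induced while tissue is dissociated did not move as one: 4 of 11 were lower and 2 higher. Their median log2 fold change was 0.07 beside 0.05 over all tested genes, of which 23.4% were lower and 23.3% higher. Hspa1a had 34.1 ± 20.7 CPM at day 7 and 124 ± 31.4 CPM at rest, and Hspa1b, its near-identical copy, 44.1 ± 24.5 CPM at day 7 and 128.5 ± 40.6 CPM at rest, so that the split between them is uncertain. Dnajb1 had 68.0 ± 6.43 CPM at day 7 and 221 ± 28 CPM at rest (-1.70, adjusted p = 8.95e-08). Hspb1 fell by 3.11 on the log2 scale, whereas Hspe1 rose by 1.11 and Hspd1 by 0.55, and the other 5 were not called. The part of handling in the falls of Nr4a1, Egr1 and Dusp1 was not tested.

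**Figure D4:**
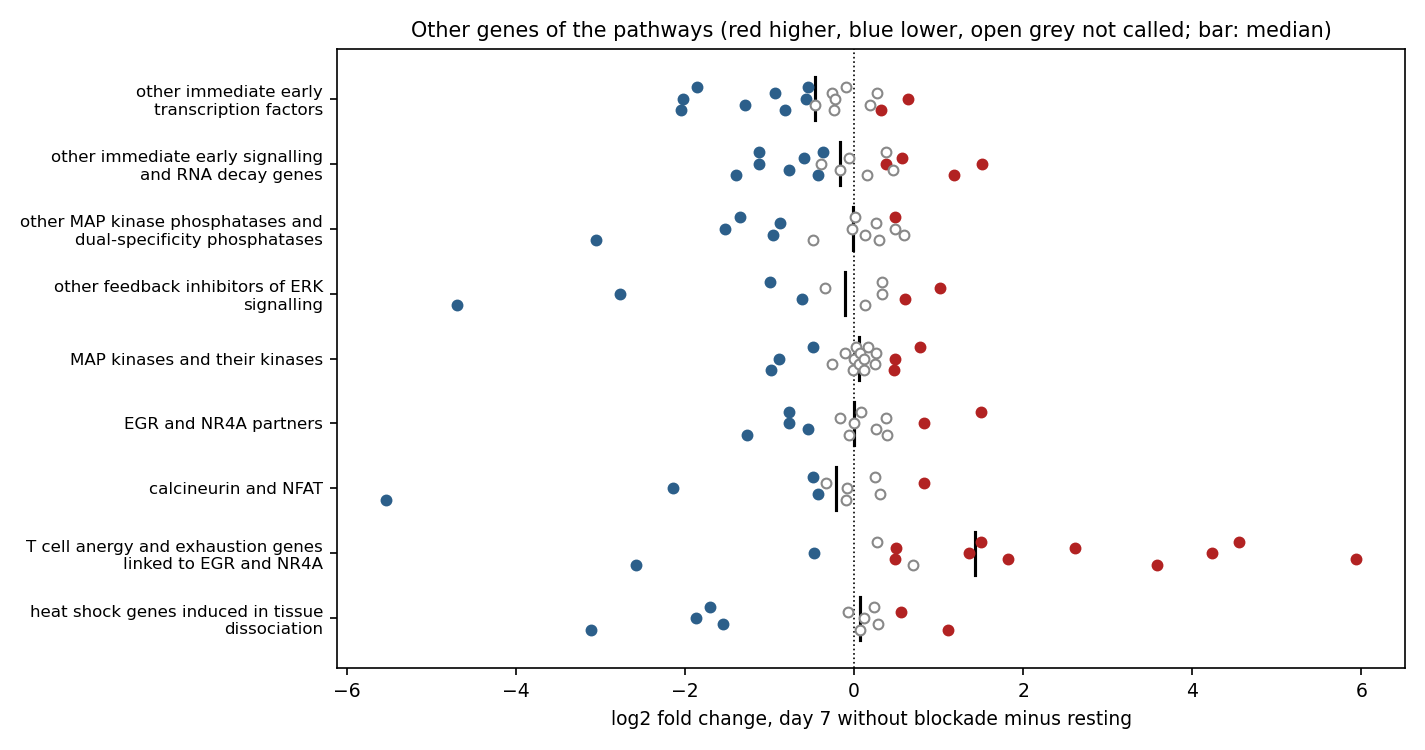
Log2 fold change (day 7 without blockade minus resting, horizontal axis) of the tested genes of 9 lists, with filled red and blue points for genes called higher and lower, open grey points for the rest, and a bar at each median. The bar of other immediate early transcription factors is at -0.46 and that of T cell anergy and exhaustion genes at 1.43.

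In the rest of the MAP kinase pathway, list medians lay near that of all genes. Over all tested genes the median was 0.05, with 23.3% called higher and 23.4% lower. Of 14 other dual-specificity phosphatases 5 were lower and 1 higher (median -0.01), with Dusp8 at 3.29 ± 1.52 CPM at day 7 and 27.0 ± 5.27 CPM at rest, and Dusp3 at 35.2 ± 12.4 CPM at day 7 and 90.0 ± 9.70 CPM at rest. Dusp18 and Dusp23 fell by 0.96 and 1.52 on the log2 scale. Other feedback inhibitors of ERK were lower in 4 and higher in 2 of 10 cases (median -0.11). Spry4 and Spry1, which block growth factor signals to ERK, fell by 4.70 and 2.77, Errfi1, an inhibitor of the epidermal growth factor receptor, fell by 0.99 and Spred1 rose by 1.02 on the log2 scale. Endothelial markers, lower in 10 of 10 cases with a median of -5.17, moved in the same libraries, and their part was not tested. Of 18 MAP kinases, their kinases and upstream RAF and RAS genes 3 were higher and 3 lower (median 0.06). Mapk3, which encodes ERK1, had 98.9 ± 14.7 CPM at day 7 and 183 ± 12.6 CPM at rest, while Map2k4 and Map2k1, which encode MAP kinase kinases, rose by 0.78 and 0.48 and Map2k6 fell by 0.99 on the log2 scale.

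Among 13 tested partners of EGR and NR4A proteins and regulators of CRE and serum response 2 were higher and 4 lower (median 0.00). Over all tested genes 23.3% were higher and 23.4% lower. Crem, a CRE-binding factor that is itself induced through CREs, rose to 272 ± 59.8 CPM at day 7, against 96.0 ± 6.10 CPM at rest (adjusted p = 1.85e-06), and Crtc3, a coactivator of CREB, rose by 0.82. Mrtfb, a coactivator of serum response factor, and Elk3, one of its ETS partners, fell by 1.27 and 0.77 on the log2 scale. Nab2, a corepressor of EGR proteins and an EGR target, had 29.6 CPM in day 7 and 29.5 CPM in resting libraries and did not pass (adjusted p = 0.994). Of 10 calcineurin and NFAT genes 1 was higher and 4 lower (median -0.22). Rcan1, an inhibitor of calcineurin, had 28.8 ± 6.97 CPM at day 7 and 128 ± 20.7 CPM at rest, Rcan2 fell by 5.54 and Nfat5 by 0.48, while Nfatc2 rose by 0.82 on the log2 scale.

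Of 14 genes of T cell anergy and exhaustion, 10 were higher and 2 lower (median 1.43). They are linked to EGR and NR4A factors in mouse T cells. Over all tested genes 23.3% were higher and 23.4% lower, with a median of 0.05. Ctla4, an inhibitory receptor, had 59.6 ± 12.8 CPM at day 7 and 3.19 ± 0.96 CPM at rest, Tigit 27.4 ± 7.63 CPM at day 7 and 2.24 ± 0.87 CPM at rest, and Lag3 9.68 ± 4.18 CPM at day 7 and 0.42 ± 0.36 CPM at rest. Pdcd1, which encodes PD-1, rose by 5.94 on the log2 scale. T cell markers were higher in the same libraries in 12 of 12 cases (median 2.30), and their part was not tested.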

How the data were processed

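RNA of sorted lung eosinophils was sequenced after Trizol extraction and library preparation with the NEBNext Ultra II kit, per the labels' protocols. STAR 2.5.2b, Subread 1.5.2 with featureCounts, Trimmomatic 0.36, bcl2fastq 2.17 and mm10 are named in the submitters' processing notes, without settings. Raw counts per gene were deposited by the authors. Columns were used only where their names matched labels; 10 columns headed by bare numbers were not used, so the groups with costimulatory blockade were not analysed here. Symbols and exon lengths came from GENCODE M21, promoters from RefSeq (GRCm38.p6).

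Genes were filtered with edgeR's filterByExpr (16500 kept), scaled by TMM and tested with edgeR 4.0.16 in R 4.3.3 (robust quasi-likelihood F test, group as the only term, Benjamini-Hochberg over all tested genes, threshold 0.05). Standard errors are the log2 fold change over the square root of F. CPM of single genes use TMM-scaled totals, and marker sums and ratios use library totals, the ratios with a pseudocount of 0.5 CPM and exact permutation tests in scipy 1.17.1. Alternatives used DESeq2 1.42.0, limma 3.58.1 (voom), other scalings and filters, the replicate number as a block and each library left out in turn. A floor of 3 counts covers counting error only. No 2 libraries of a group agreed within sampling noise. The labels do not say that pools were independent, and the spread behind each p-value, which may be technical, is that between pools.

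The members and lists were chosen with earlier results of these data known. Named genes are the 10 members, the 3 genes nearest to each member and up to 4 called genes per pathway list. The latter are those with the largest change and 5 CPM or more in the higher of the 2 groups. Nab2, Hspe1 and Hspd1 were named after their values were seen.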

Additional observations from a re-analysis of the deposited data

Results flagged for a closer look

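Of 34 groups of 5 values tested for a library far from the others (10 genes and 7 ratios, each in both groups), 2 stood out. Chance gives about 1 in 20, or 1.7 of the 34. Nr4a1 in day 7 replicate 1 had 713 CPM, with a gap to the nearest library of 0.909 of the group's range. Egr3 in the same library had 20.9 CPM, with a gap of 0.776 of the range. Without that library the log2 fold changes were -1.26 for Nr4a1 and 0.16 for Egr3. This library also had the lowest sum of eosinophil markers (794 CPM), and its part in these values was not tested.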

How the results depend on the processing

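The 10 genes were refitted under 19 alternatives each. None changed direction, and 184 of 190 values stayed on the same side of the threshold. Without a filter on low counts Egr1 lost its call (-1.52, adjusted p = 0.0584) and Egr3 gained one (0.83), and with library totals alone Dusp5 lost its call (0.51). Library totals alone also moved the median of all genes to -0.14 and gave 2495 higher genes, or 33.8% of those called, in place of 3843 (49.9%), and no filter gave 6715 lower genes in place of 3859. With each library left out in turn, Egr3 ranged from 0.16 to 0.94 and Dusp5 from 0.55 to 0.83. The 7 ratios kept their direction and call under all 12 alternatives. Of these 12, the 10 that left out a library could not have altered either, because no ratio overlapped between the groups. The other alternatives were pseudocounts of 0.1 and 2 CPM. The cause of the changes in calls and in numbers of genes was not tested. Replicate numbers did not pair the libraries (correlations of deviations -0.35 to 0.27, no library highest with its own number). With the number as a block 3317 genes were higher and 3636 lower, and no call of a member changed. Depth limits Egr3 and Dusp4 most, with as few as 40 and 25 counts in a resting library.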
